A study of Mus musculus with 17 samples.

Results

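The D cyclins, their kinases CDK4 and CDK6, and the inhibitors that hold these kinases back form the gate through which a cell leaves G1. The 10 genes Ccnd1, Ccnd2, Ccnd3, Cdk4, Cdk6, Cdkn1a, Cdkn1b, Cdkn2a, Cdkn2b and Cdkn2c were taken by symbol, and all 10 were found among the 13905 genes of the genotype table and among the 39179 genes of the table of an inducible tumour model. The RNA that was sequenced came from frozen prostates and prostate tumours of C57BL/6 mice. Wild-type prostate came from mice of 12 months (n = 3). Tumours with the label Ctnnb1pc(ex3)delta/+, here the Ctnnb1 group, came from mice of about 12 months (n = 3) and carry 1 Ctnnb1 allele without exon 3, which leaves a beta-catenin that escapes breakdown and drives Wnt target genes. The combined group (n = 3), of mice aged about 6 to 8 months, adds another engineered change to this allele. The labels do not spell out pc, so the driver of recombination in these groups is not stated here. The inducible model carries the combined genotype through a CreERT2, a Cre that is active after tamoxifen. It was mock treated (n = 2) or given androgen deprivation, ADT (n = 3), at about 15 months. Age therefore differs with genotype for the combined group, and the effects of age and genotype cannot be told apart there. The labels do not say that each library came from a separate animal, so p-values measure the spread between these samples, which may be technical.

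D cyclins rise when growth factors or Wnt signals arrive, bind CDK4 or CDK6, and the pair phosphorylates the retinoblastoma protein, which releases E2F factors to switch on genes of S phase. The INK4 inhibitors, encoded here by Cdkn2a, Cdkn2b and Cdkn2c, block CDK4 and CDK6 directly, whereas the products of Cdkn1a and Cdkn1b block CDK2 and also help D cyclins to assemble with their kinases. Cdkn2a encodes both Ink4a and, from an upstream first exon read in another frame, Arf, which stabilises p53, and p53 in turn activates Cdkn1a. Cdkn2a, Cdkn2b and Cdkn1a are classical markers of senescence, a lasting exit from the cell cycle that prostate epithelium can enter when an oncogenic change arises.

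The sequences before the start sites are shown for the genes that were higher in both tumour groups and that RefSeq places beside each other or that hold a searched motif. RefSeq (GRCm38.p6) gave 12 windows for 8 of the 10 members, not for Ccnd1 or Ccnd2, and the 250 bases before each start were searched on both strands for 3 motifs that do not overlap here. Capitals mark a match. CATG, then any 6 bases, then CATG, the core of a p53 site without spacer, was in 0.49% of 32851 mouse windows. The letters ATCAAAG, the core that TCF/LEF factors bind, were in 3.21%, and TTTCCCGC, an E2F site, in 0.895%. Cdkn2a and Cdkn2b lie 11.6 kb apart on the same strand of chromosome 4. Among the members' windows, p53 letters were found in that of the upstream Cdkn1a start (bases -48 to -35 from the start), E2F letters in that of the Arf start of Cdkn2a (-99 to -92) and TCF/LEF letters in that of Cdk4 (-52 to -46). A match describes the sequence and is not evidence of binding.
Cdkn1a, upstream start (chr17:29090729-29090978, plus strand): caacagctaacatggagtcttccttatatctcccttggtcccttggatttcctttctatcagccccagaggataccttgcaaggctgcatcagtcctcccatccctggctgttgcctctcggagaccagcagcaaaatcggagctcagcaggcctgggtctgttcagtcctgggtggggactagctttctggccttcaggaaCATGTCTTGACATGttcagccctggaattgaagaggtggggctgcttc
Cdkn2a, Arf start (chr4:89294620-89294869, minus strand): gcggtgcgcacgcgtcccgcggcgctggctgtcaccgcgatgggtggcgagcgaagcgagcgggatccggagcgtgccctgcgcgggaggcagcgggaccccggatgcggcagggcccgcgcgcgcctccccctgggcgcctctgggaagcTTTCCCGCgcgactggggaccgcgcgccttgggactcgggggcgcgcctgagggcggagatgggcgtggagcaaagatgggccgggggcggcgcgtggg
Cdkn2a, Ink4a start (chr4:89282193-89282442, minus strand): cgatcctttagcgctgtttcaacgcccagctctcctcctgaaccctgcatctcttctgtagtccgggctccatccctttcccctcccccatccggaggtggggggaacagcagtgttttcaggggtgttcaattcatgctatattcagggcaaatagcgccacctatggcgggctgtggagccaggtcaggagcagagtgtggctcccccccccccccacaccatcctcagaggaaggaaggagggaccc
Cdkn2b (chr4:89311033-89311282, minus strand): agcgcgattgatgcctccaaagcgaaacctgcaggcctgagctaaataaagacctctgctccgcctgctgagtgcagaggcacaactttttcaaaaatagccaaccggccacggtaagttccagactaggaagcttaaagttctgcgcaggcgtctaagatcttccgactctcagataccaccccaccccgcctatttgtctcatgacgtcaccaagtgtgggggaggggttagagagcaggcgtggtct
Cdk4 (chr10:127063285-127063534, plus strand): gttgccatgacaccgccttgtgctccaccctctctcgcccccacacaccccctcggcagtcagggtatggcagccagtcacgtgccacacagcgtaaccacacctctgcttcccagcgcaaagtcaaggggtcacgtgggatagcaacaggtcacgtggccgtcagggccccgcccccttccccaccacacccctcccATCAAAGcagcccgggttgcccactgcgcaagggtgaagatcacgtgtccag

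The deposited values are gene counts that the authors scaled per library and rounded, called scaled counts here, so their depth is not known. The scaled counts of a library summed to 45675083 to 47248750 in wild type, 33903149 to 35120175 in the Ctnnb1 group, 32455483 to 34376245 in the combined group and 30591734 to 32791101 in the inducible model. Log2 changes are on the scale of log2(scaled count + 1), their SE is limma's moderated SE, and a gene is called at a Benjamini-Hochberg adjusted p under 0.05 over all genes tested. After rescaling every library to the same total, the median log2 change over all genes was 0.49 in the Ctnnb1 comparison, in place of 0.00, and 0.50 in the combined one, in place of -0.01, so small changes depend on the scaling and are given on both scales where the call or direction differs. The 6 luminal epithelium markers were present in every group, at a summed scaled count of 109886 to 123456 in wild type, 110519 to 122309 in the Ctnnb1 group and 88454 to 114844 in the combined group. Single markers went both ways against wild type, with 1 called higher and 2 lower in the Ctnnb1 group and 2 higher and 3 lower in the combined group. With equal totals these counts were 3 and 1, and 2 and 2. Like sums thus do not show a like share of luminal cells. The wild-type pieces also held seminal vesicle transcripts, at a summed scaled count of 479326 to 4638336 over 7 markers, against 205 to 5140 in the Ctnnb1 group and 44682 to 213638 in the combined group. All 6 smooth muscle markers fell in both tumour groups, from 131613 to 167026 summed in wild type to 1698 to 3258 and 5456 to 17629. In such bulk samples, fewer cells of a type and less RNA per cell cannot be told apart, and the part of these tissue differences in the results below was not tested.

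The first comparison asked how G1 control genes stand in tumours with stable beta-catenin against wild-type prostate, and the second asked the same of the combined genotype. The wild-type libraries are the controls of both. Inhibitor genes Cdkn1a, Cdkn2a and Cdkn2b rose strongly in both tumour groups, and Cdk6 and Cdk4 rose less. On the reported scale Ccnd3 fell, and Ccnd1, a textbook Wnt target in human colon cells, was not called. With equal totals Ccnd3 was not called in either group, and Ccnd1 was called higher in the combined group. In the Ctnnb1 comparison limma called 5 of the 10 members higher and 2 lower, where 58.5% of 13905 genes were called, 28.9% higher and 29.6% lower. In the combined comparison it called 5 higher and 1 lower, where 57.8% of genes were called, 28.3% higher and 29.5% lower. Tumour libraries all lay above all wild-type libraries for 5 members in the Ctnnb1 comparison (35.9% of genes) and 6 in the combined one (32.1%), and all below for 2 (35.6%) and 1 (34.0%). Calls were thus common among all genes, and the members are described here by their sizes of change rather than by their number.

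**Figure D1:**
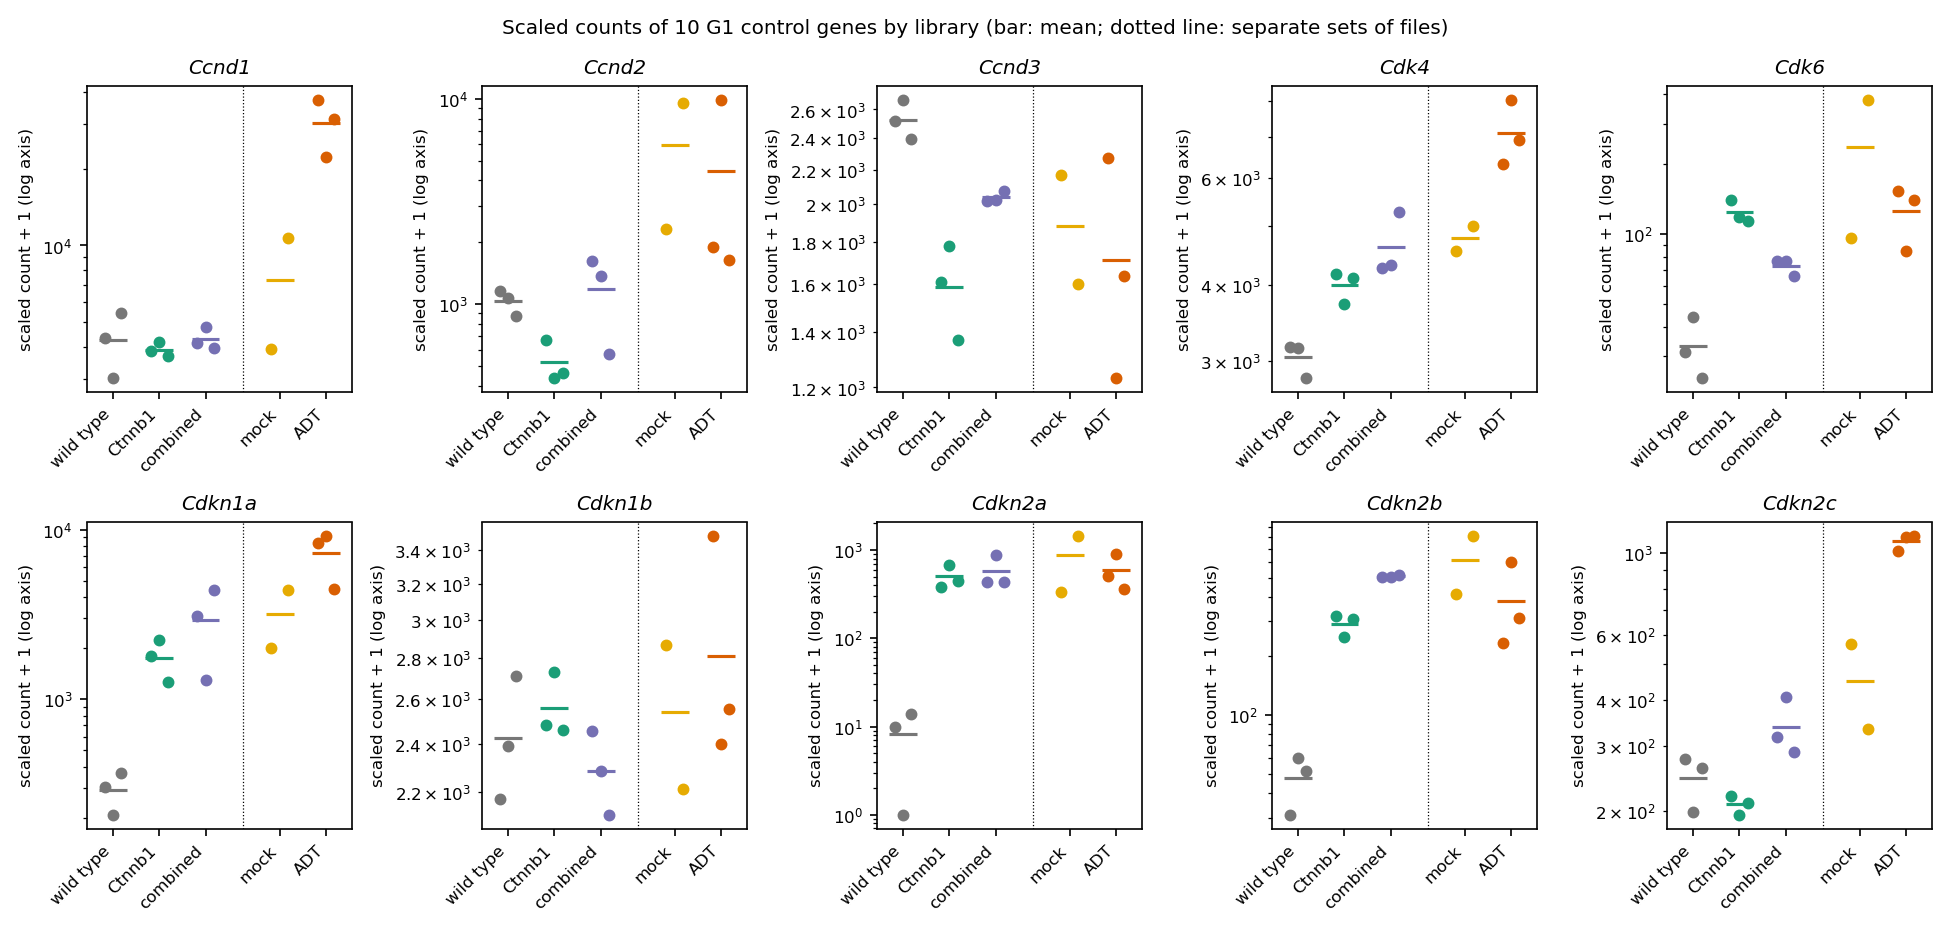
Scaled counts plus 1 (log axis) of the 10 genes, 1 point per library and a bar at the group mean; the dotted line separates 2 sets of files that are not compared. Cdkn2a lies at 0 to 13 in wild type and at 380 to 869 in the tumours beside it, and Ccnd1 lies at 22101 to 37132 under ADT.

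Ccnd1 (Entrez 12443; GRCm38 chromosome 7, 144929931 to 144939925), the D cyclin with the highest count here, was at 4339, 3020 and 5466 in wild type. The Ctnnb1 libraries were at 3851, 4180 and 3691, and the combined ones at 4144, 4818 and 3955. All tumour libraries lay inside the wild-type range. The log2 change was -0.09 (SE 0.19, limma adjusted p 0.703) in the Ctnnb1 group and 0.05 (SE 0.19, adjusted p 0.847 in limma) in the combined group. With equal totals the values were 0.40 (adjusted p 0.0675) and 0.56 (adjusted p 0.0189 in limma), the second a call, so a small change relative to all RNA depends on the scaling. Without wild-type replicate 3 the Ctnnb1 value was 0.11.

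Ccnd2, a D cyclin used in many tissues beside Ccnd1, was at 1159, 1066 and 878 in wild type and at 667, 434 and 462 in the Ctnnb1 group. These groups did not overlap, and Ccnd2 fell (log2 change -1.01, SE 0.37, adjusted p 0.0429 in limma). The call was lost without any single wild-type library or without Ctnnb1 replicate 14 or 15 (adjusted p 0.0632 to 0.115) and with equal totals (-0.51, adjusted p 0.231). In the combined group Ccnd2 was at 1625, 1362 and 568, on both sides of wild type (log2 change 0.07, SE 0.37, adjusted p 0.879 in limma). The low library of that group, replicate 12, also had the lowest sum of 7 fibroblast markers, 36225 against 269059 and 566686 in replicates 10 and 11, and of 6 endothelial markers, 7042 against 11363 and 12117. In the Ctnnb1 group the fibroblast sum was 17758 to 27098, against 30683 to 36606 in wild type, with 1 of 7 markers called lower. The median log2 change of these 7 was -0.22, and 0.27 with equal totals. The endothelial sum went the other way, at 6075 to 6999 against 4641 to 5492 in wild type. Of the 6 endothelial markers 1 was called higher. The smooth muscle sum was 5456 in combined replicate 12, against 14904 and 17629 in replicates 10 and 11. In the Ctnnb1 group it was 1698 to 3258, against 131613 to 167026 in wild type. Yet in replicates 10 and 11 it lay below wild type while Ccnd2 lay above. The macrophage sum was low in replicate 12 too, 4813 against 18422 and 16317. In the Ctnnb1 group it was higher than in wild type, at 4801 to 5749 against 2235 to 2768. None of these markers was at 0 throughout a group, and their part in the Ccnd2 values was not tested.

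Ccnd3 was at 2515, 2669 and 2393 in wild-type prostate, at 1606, 1780 and 1368 in Ctnnb1 tumours and at 2015, 2020 and 2071 in combined tumours. Every tumour library lay below every wild-type library. Ccnd3, the D cyclin best known from lymphoid and differentiated cells, fell in the Ctnnb1 group (log2 change -0.68, SE 0.10, limma adjusted p 0.000547) and less far in the combined group (-0.31, SE 0.10, adjusted p 0.0229 in limma). With equal totals the values were -0.19 (adjusted p 0.112) and 0.21 (adjusted p 0.0876 in limma), so neither is a call on that scale and the direction flips in the combined group. The call in the combined group was also lost without wild-type replicate 1 or 2 or without combined replicate 10 or 11 (adjusted p 0.0536 to 0.0808 in limma).

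Cdk4 (Entrez 12567; GRCm38 chromosome 10, 127063534 to 127067920), the main catalytic partner of D cyclins in most epithelia, was at 3166, 3152 and 2810 in wild-type prostate, at 4168, 3715 and 4105 in Ctnnb1 tumours and at 4260, 4314 and 5261 in combined tumours. The tumour libraries all lay above wild type. It rose by a modest amount, with a log2 change of 0.39 (SE 0.10, limma adjusted p 0.00875) and of 0.60 (SE 0.10, adjusted p 0.00115 in limma). With equal totals the changes were 0.88 and 1.11, both called. The files list the same values under a second Entrez number, that of a Cdk4-like locus, and the counts stand here for Cdk4.

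Cdk6, the other partner kinase, had the lowest mean count per kb of exon of the 10 genes in wild type, within the spread of Cdkn2a. It was at 30, 43 and 23 there, at 140, 118 and 113 in Ctnnb1 tumours and at 76, 76 and 65 in combined tumours. The 3 groups did not overlap, with the Ctnnb1 libraries highest. Cdk6 rose in the Ctnnb1 group (log2 change 1.96, SE 0.28, limma adjusted p 0.000535) and in the combined group (1.19, SE 0.28, adjusted p 0.00619 in limma). Even so, Cdk6 made up 2.68% to 3.25% of the summed Cdk4 and Cdk6 counts in the Ctnnb1 libraries, 1.22% to 1.75% in the combined ones and 0.812% to 1.35% in wild type. Per kb of exon these shares were 0.635% to 0.774%, 0.286% to 0.413% and 0.19% to 0.316%.

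Cdkn1a (Entrez 12575; GRCm38 chromosome 17, 29090976 to 29100727), the p53-responsive inhibitor whose upstream window is printed above, was at 303, 207 and 364 in wild type. Ctnnb1 tumours had 1792, 2217 and 1254, and combined tumours 3085, 1291 and 4420. The lowest tumour library was above 3 times the highest wild-type one, and the combined libraries varied most, with an SD of 1570 around a mean of 2932. Cdkn1a rose in the Ctnnb1 group (log2 change 2.59, SE 0.44, limma adjusted p 0.00138) and in the combined group (3.19, SE 0.44, adjusted p 0.000473 in limma).

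Cdkn1b, the inhibitor that gathers in resting cells and is removed mainly at the protein level, was at 2171, 2391 and 2710 in wild-type prostate, at 2480, 2732 and 2461 in Ctnnb1 tumours and at 2456, 2284 and 2112 in combined tumours. The groups overlapped throughout. Its log2 change was 0.08 (SE 0.10, limma adjusted p 0.486) and -0.08 (SE 0.10, adjusted p 0.484 in limma). With equal totals it was called higher in both, at 0.57 (adjusted p 0.000648) and 0.43 (adjusted p 0.0031 in limma). Within each library, which no scaling touches, the ratio of Cdkn1a to Cdkn1b counts was 0.0866 to 0.14 in wild type, 0.51 to 0.811 in Ctnnb1 tumours and 0.565 to 2.09 in combined tumours. That ratio was picked after the values were seen, and its wild-type range lies below all tumour libraries.

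Cdkn2a (Entrez 12578; GRCm38 chromosome 4, 89274471 to 89294653) was nearly silent in wild-type prostate, at 9, 0 and 13. Ctnnb1 tumours had 380, 679 and 440, and combined tumours 435, 869 and 437, so tumour and wild-type libraries lay far apart while the tumour groups overlapped. The log2 change was 6.55 (SE 0.89, limma adjusted p 0.000457) and 6.73 (SE 0.89, adjusted p 0.0004 in limma). Because the wild-type counts are so low, the size depends on the pseudocount, and with 10 in place of 1 it was 4.92 and 5.10, still called. The lowest mean of a gene kept from these files was 15.6 over the 9 libraries. Cdkn2a is thus listed only through its tumour values, and a fall could hardly have appeared. The gene total joins the Ink4a and Arf transcripts, which share later exons, so it does not say which of the start sites printed above was used.

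Cdkn2b, the neighbour of Cdkn2a and a classical target of TGF-beta, was at 30, 59 and 51 in wild-type prostate, at 316, 248 and 308 in Ctnnb1 tumours and at 500, 503 and 516 in combined tumours. The 3 groups did not overlap, and the combined libraries were closest to each other, with an SD of 8.5 around a mean of 506. Cdkn2b rose by 2.66 on the log2 scale in the first (SE 0.25, limma adjusted p 8.02e-05) and by 3.47 in the second (SE 0.25, limma adjusted p 2.45e-05). The ratio of Cdkn2a to Cdkn2b counts within a library, also picked after the values were seen, was 0 to 0.3 in wild type, 1.2 to 2.74 in Ctnnb1 tumours and 0.847 to 1.73 in combined tumours. The neighbours thus rose by unequal amounts on this count scale.

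Cdkn2c, an INK4 gene that lies elsewhere on chromosome 4 and is linked to differentiation, was not called in either comparison. It was at 276, 198 and 260 in wild-type prostate, at 218, 194 and 209 in Ctnnb1 tumours and at 316, 407 and 288 in combined tumours. The combined libraries lay above wild type and the Ctnnb1 libraries overlapped it. The log2 change was -0.23 (SE 0.18, limma adjusted p 0.311) in the Ctnnb1 group and 0.46 (SE 0.18, adjusted p 0.0599 in limma) in the combined group, just short of the threshold. The second was called with equal totals (0.97, adjusted p 0.00121), without combined replicate 12 (0.56, adjusted p 0.0351), without a trend in the prior variance (0.46, adjusted p 0.048) and with 12 libraries in the fit (0.46, adjusted p 0.0434 in limma). With equal totals the Ctnnb1 value was 0.26.

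**Figure D2:**
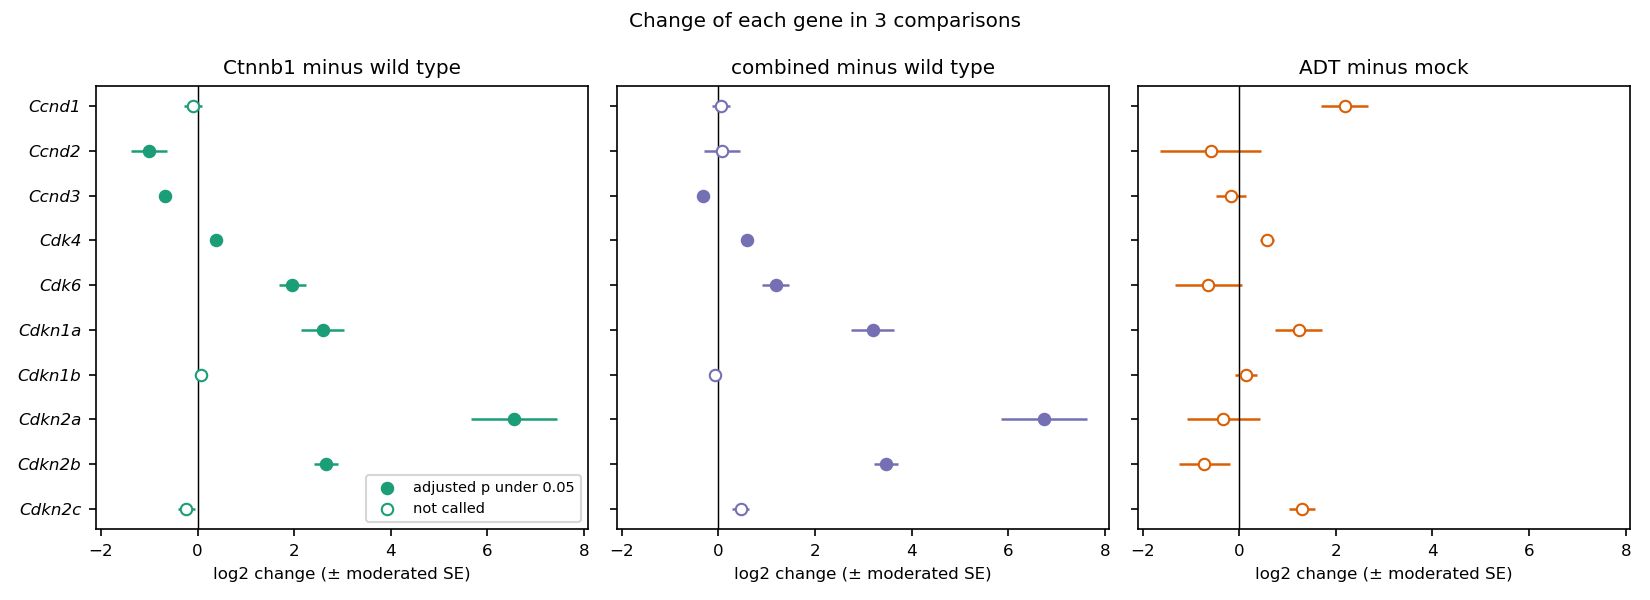
Log2 change of each gene (x axis, on the log2 scale of scaled count + 1, with limma's moderated SE as bars) in the 3 comparisons; filled points were called and open points were not. Cdkn2a stands farthest out in the first and second panels, at 6.55 and 6.73, and Ccnd1 in the third, at 2.18, where no member was called.

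Levels of different genes can be set beside each other only per length of transcript, and here the scaled count was divided by the kb of exon that GENCODE M21 gives the gene. That length joins the exons of all annotated transcripts of a gene. It can exceed the length of the transcripts in use, so the order below is approximate. In wild-type prostate Cdk4 (936 ± 62.1 per kb, SD, n = 3) and Ccnd1 (908 ± 260) led without differing beyond their spread. They were followed by Cdkn1b (533 ± 59.5) and Ccnd3 (288 ± 15.8). Ccnd2 (110 ± 15.2), Cdkn2c (91.1 ± 15.3) and Cdkn1a (82.0 ± 22.3) came next with overlapping values, and then Cdkn2b (33.6 ± 10.8), Cdkn2a (6.26 ± 5.68) and Cdk6 (2.29 ± 0.725). In the Ctnnb1 group the order began with Cdk4 (1230 ± 75.5), Ccnd1 (830 ± 52.9) and Cdkn1b (562 ± 33.2), and Cdkn1a (494 ± 136) and Cdkn2a (426 ± 135) now stood beside Cdkn1b within their spread. Cdkn2b (209 ± 26.7) and Ccnd3 (181 ± 23.6) followed, with Cdkn2c (77.1 ± 4.51), Ccnd2 (55.4 ± 13.5) and Cdk6 (8.84 ± 1.03) last. In the combined group Cdkn1a (825 ± 442 per kb) reached the level of Ccnd1 (914 ± 96.3) within its wide spread, and Cdkn2a (495 ± 213) that of Cdkn1b (502 ± 37.8).

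**Figure D3:**
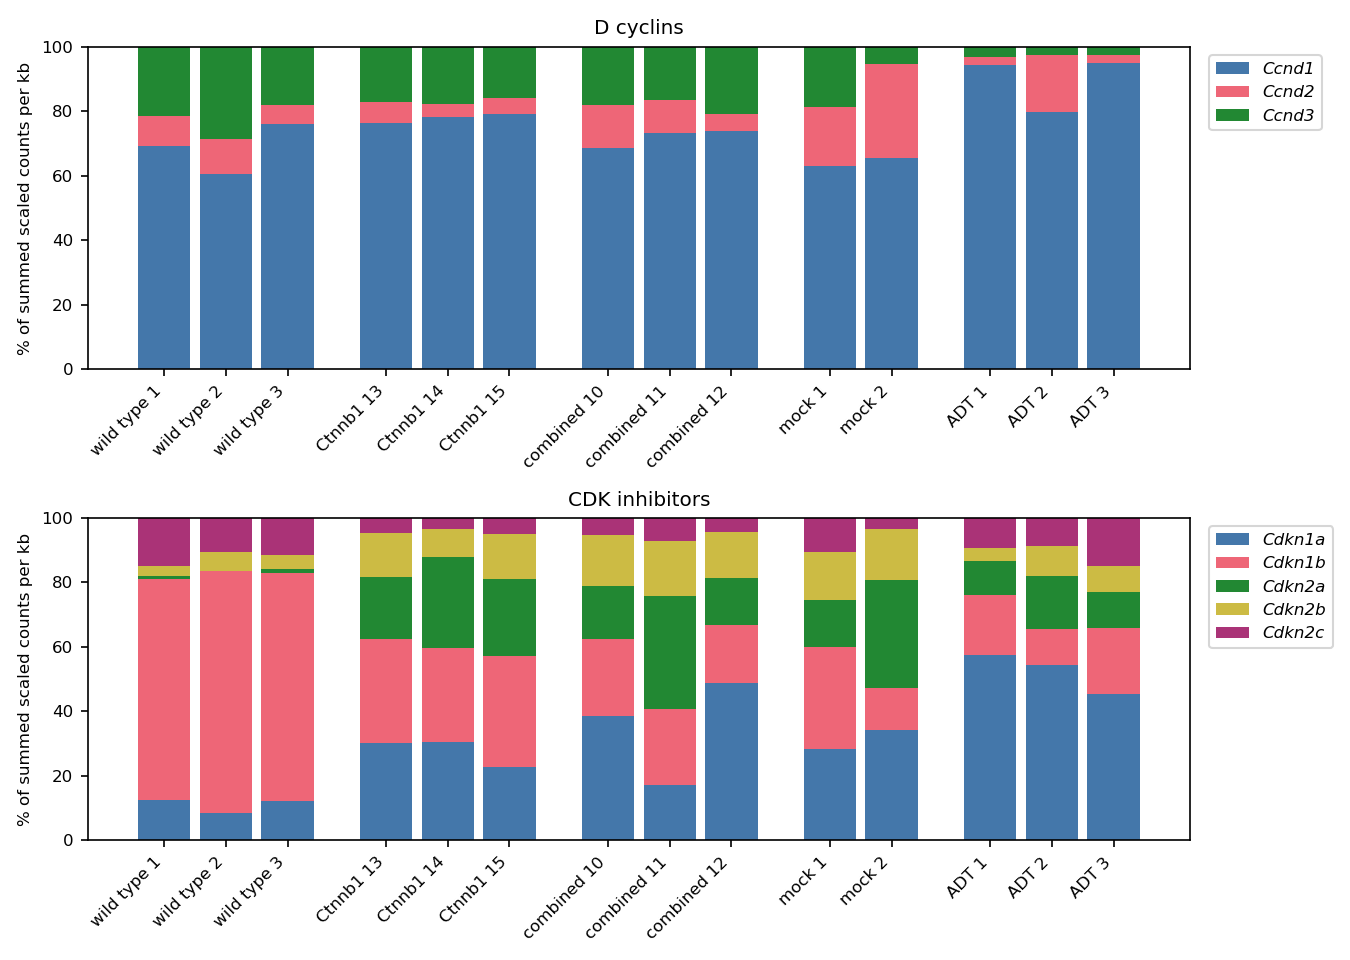
Stacked share (% of summed scaled counts per kb of exon, y axis from 0 to 100) of each D cyclin and of each CDK inhibitor in every library. Cdkn1b makes up 68.7% to 75.1% of the inhibitor sum in wild type and 29.2% to 34.5% in the Ctnnb1 group, and Ccnd1 reaches 94.5% and 94.9% of the D cyclin sum in ADT replicates 1 and 3.

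Shares within a pool do not depend on how libraries were scaled. Shares of counts weight long transcripts more, so they serve to compare a gene between groups, and the plot of shares gives them per kb. Ccnd1 made up 53.8% ± 8.93 of D cyclin counts in wild type, 65.0% ± 2.01 in the Ctnnb1 group and 57.3% ± 3.59 in the combined group (SD, n = 3 each). The Ctnnb1 libraries, at 62.9% to 66.9%, lay just above the highest wild-type one at 62.6%, and the exact permutation p (two-sided) was 0.1, the smallest that 3 against 3 allows. For the combined group the exact p was 0.7. Cdkn1a made up 9.61% ± 2.04 of the inhibitor counts in wild type, 32.6% ± 5.12 in the Ctnnb1 group and 42.1% ± 16.6 in the combined group (exact permutation p 0.1 for each against wild type, n = 3). The inhibitor sum itself was 2789 to 3398 in wild type, 4672 to 6070 in the Ctnnb1 group and 5354 to 7773 in the combined group. The D cyclin sum was 6755 to 8737, 5521 to 6394 and 6594 to 8200 in the same order. Unlike the shares, both sums depend on how libraries were scaled, and they were not recomputed with equal totals. Wild-type libraries had the larger totals, so the low D cyclin sum of the Ctnnb1 group may not hold on that scale.

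The genes around the members were counted in 7 lists. All 13 E2F target genes of S phase rose in both tumour groups, with a median log2 change of 1.53 in the Ctnnb1 and 1.86 in the combined comparison, where the median of all genes was 0.00 and -0.01. Among them Mki67, a marker of cycling cells, averaged 2272 and 3006 against 227 in wild type (log2 change 3.42 and 3.81), and Mcm7 and Mcm3, parts of the replicative helicase, rose by 1.53 and 2.29 in the Ctnnb1 group. Of the 10 later cyclins, CDKs and CDC25 phosphatases 9 rose and 1 fell in each comparison (median 2.00 and 2.70), with Ccnb1 at 2.93 and 3.54 and Ccna2 at 3.09 and 3.86. The exception was Cdc25a, a phosphatase that activates CDK2, at -1.28 (SE 0.14, limma adjusted p 0.000189) and -1.11. With equal totals the counts in both lists were the same, 13 higher and 0 lower, and 9 higher and 1 lower. Both the inhibitor genes Cdkn1a, Cdkn2a and Cdkn2b and the genes of S phase were thus higher in each tumour group than in wild type.

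The other lists were less uniform, and many of their falls were lost with equal totals. On that scale 56.1% of all genes were called higher and 15.0% lower in the Ctnnb1 comparison, and 57.3% and 12.6% in the combined one, so most of the counts given with equal totals below are to be read against a large background. Of 10 E2F factors and partners, 7 rose and 1 fell in the Ctnnb1 group (median 0.74), and 6 rose and 2 fell in the combined group (median 0.98). E2f8 (3.38 and 4.17) and E2f7 (2.92 and 3.65), repressors that E2F activity itself induces, rose, while Tfdp2, a dimer partner, fell (-0.30 and -0.85, the first at 0.19 and not called with equal totals). On that scale 8 rose in each comparison and 0 and 1 fell. Of the 6 pocket proteins and other CDK inhibitors, 2 rose and 1 fell in each comparison (median -0.16 and 0.38), near the shares of all genes called. With equal totals 3 rose in the Ctnnb1 group and 5 in the combined group, and 0 fell. Rbl1 rose (0.48 and 0.75) and Rbl2, the pocket protein of resting cells, fell (-0.43 and -0.87, but 0.06 and -0.36 with equal totals, neither called), and Cdkn3, a phosphatase of CDKs, rose (2.58 and 3.44). Of 11 genes for the turnover of cyclin D and the Cdkn1 inhibitors, 5 rose and 3 fell in the Ctnnb1 group (median 0.04), and 4 rose and 4 fell in the combined group (median -0.11). Skp2, which marks the Cdkn1b protein for breakdown, rose (1.56 and 1.71), and so did Dtl, which acts likewise on the Cdkn1a protein in S phase (3.02 and 3.79). Fbxo31, a ligase component linked to cyclin D1, fell (-0.66 and -1.21, the first at -0.16 and not called with equal totals). Usp2 of the same list fell too (-1.79 and -2.32). Cks1b was also called lower (-0.66 and -0.46), but with equal totals it was at -0.17 and 0.06 and not called. With equal totals 8 of the 11 rose and 1 fell in the Ctnnb1 group, and 7 rose and 2 fell in the combined group, the latter close to the background on that scale.

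Of 12 regulators of the Cdkn2a and Cdkn2b locus, 6 rose and 1 fell in the Ctnnb1 group (median 0.46), and 7 rose and 2 fell in the combined group (median 0.33). Among Polycomb genes that silence the locus, Ezh2 rose (1.60, SE 0.09, limma adjusted p 1.08e-05, and 1.91). So did Suz12 (0.39 and 0.37) and Eed (0.23 and 0.30), called in both comparisons. Bmi1 fell (-0.90 and -0.59, the second at -0.07 and not called with equal totals). On the reported scale Cbx7 and Cbx8 were not called, and Ring1 was called lower in the combined group only (-0.35). With equal totals Ring1 was at 0.17 there and not called. With equal totals 11 of the 12 rose and 1 fell in the Ctnnb1 group, and 9 rose and 0 fell in the combined group, where 56.1% and 57.3% of all genes rose. Ets2, an activator of Ink4a in human cells, rose from a mean of 3948 to 14531 and 15240 (log2 change 1.88 and 1.95). Of the 11 tested of 12 senescence-associated secreted genes, 8 rose in the Ctnnb1 group (median 2.47) and 11 in the combined group (median 3.85), and 0 fell. They include Plaur (2.59 and 2.70), the urokinase receptor, and Igfbp3 (1.56 and 2.31). With equal totals 11 rose in each. The lowest mean of a gene kept from the genotype files was 15.6 over the 9 libraries. Mmp3, Mmp13, Cxcl1, Cxcl2 and Il1a averaged 4.67 to 11 in wild type, so they are listed only through their tumour values. For them a fall could hardly have appeared, and the count of 0 that fell says little. Macrophage markers rose as well, 4 of 6 in the Ctnnb1 and 5 of 6 in the combined group, with summed counts of 2235 to 2768 in wild type, 4801 to 5749 and 4813 to 18422. In the combined group 5 of 7 fibroblast markers (median log2 change 2.50) and 5 of 6 endothelial markers (0.84) rose too. The fibroblast sum of combined replicate 12, 36225, lay within the wild-type range of 30683 to 36606, however. None of these markers was at 0 throughout a group, and the part of these cell types in the secreted genes was not tested.

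**Figure D4:**
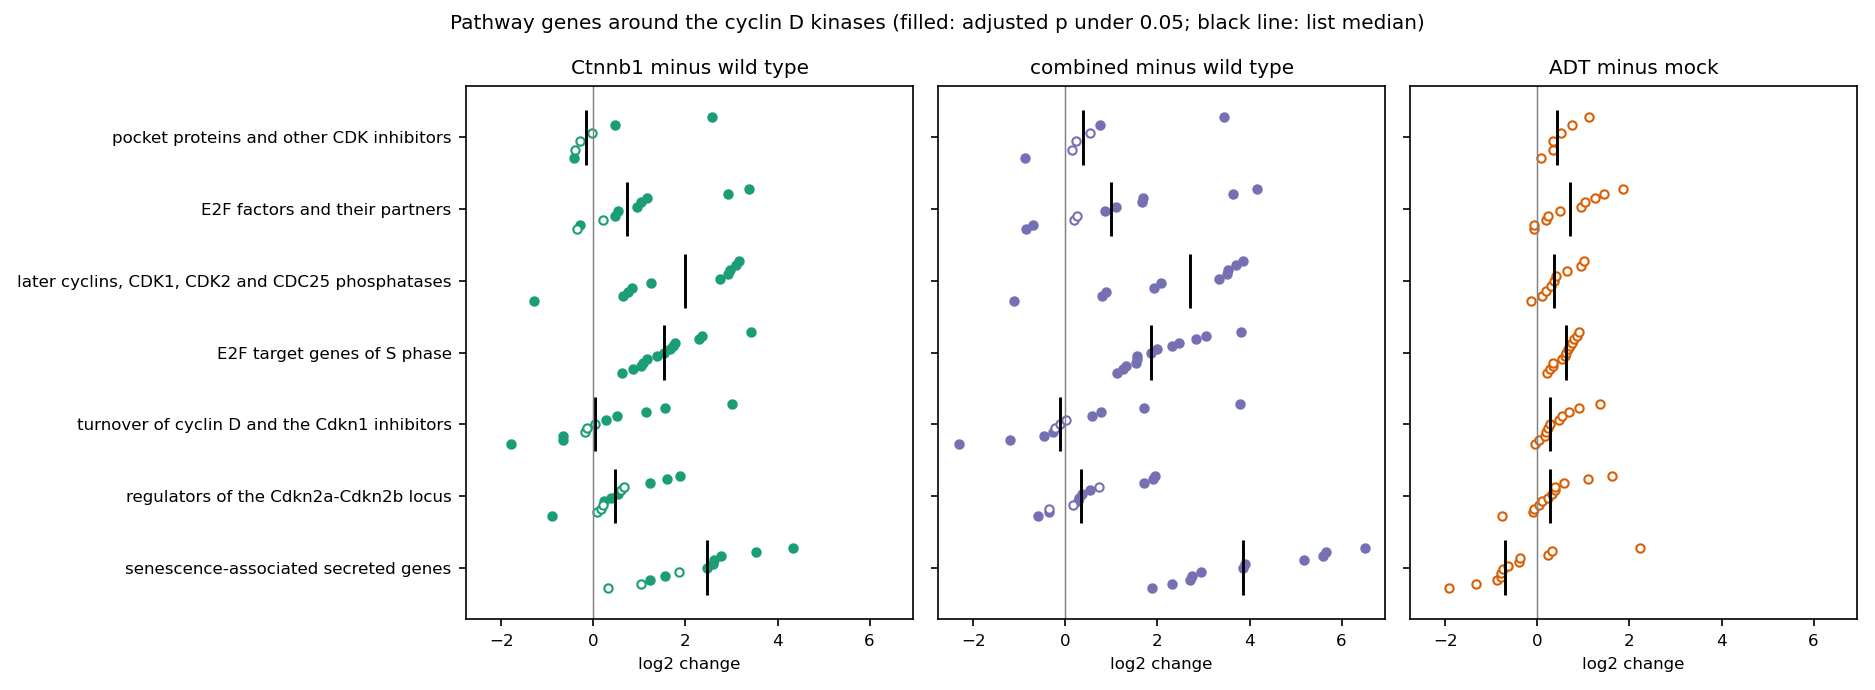
Log2 change (x axis) of every tested gene of 7 pathway lists in the 3 comparisons; filled points were called, open points were not, and a black line marks the median of the list. The 13 E2F target genes of S phase are all filled and right of 0 in the first and second panels, with medians of 1.53 and 1.86, and all points of the third panel are open.

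The third comparison asked what androgen deprivation does to tumours of the inducible model. Ccnd1, Cdk4, Cdkn1a and Cdkn2c were higher in all 3 ADT libraries than in both mock libraries, but none of the 10 members was called. limma called 2 of 23289 genes (0.00859%), and 16.2% of genes had an unadjusted p under 0.05, against 3 of the 10 members. Groups that did not overlap, with ADT higher, were found for 4 of the 10 members and for 16.4% of all genes. ADT lower was found for 0 members and for 16.8% of genes. The mock libraries differed widely from each other for several members.

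Ccnd1 was at 3939 and 10712 with mock treatment and at 37132, 22101 and 31248 under ADT. Its log2 change was 2.18 (SE 0.49, unadjusted p 0.00794, limma adjusted p 0.181), and over 14 other settings it ran from 1.46 to 2.90 with adjusted p from 0.129 to 0.43. Within each library the ratio of Ccnd1 to Ccnd3 counts was 1.82 and 6.7 with mock treatment and 16.4 to 19.1 under ADT. The 3 ADT libraries were much alike in this ratio, which was picked after the values were seen. Ccnd1 made up 46.7% and 49.0% of D cyclin counts in the mock libraries and 89.9%, 66.6% and 90.5% in the ADT libraries (exact permutation p 0.2, two-sided, the smallest that 3 against 2 allows). The D cyclin sum was 8430 and 21853 against 41293, 33193 and 34512.

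The lower Ccnd1 share of ADT replicate 2 went with a high Ccnd2. Ccnd2 was at 2326 and 9543 with mock treatment and at 1893, 9862 and 1629 under ADT, so 1 library of each group stood about as high as the other (log2 change -0.59, SE 1.05, limma adjusted p 0.819, with 0.42 when mock replicate 2 was left out). Ccnd3 was at 2165 and 1598 against 2268, 1230 and 1635 (-0.17, SE 0.31, limma adjusted p 0.832), and its sign changed without mock replicate 1 or ADT replicate 2 (0.05 each). Neither gene showed a difference beyond the spread between libraries.

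Cdk4 was at 4544 and 4999 with mock treatment and at 6311, 8042 and 6911 under ADT (log2 change 0.57, SE 0.15, adjusted p 0.194 in limma). Every ADT library lay above both mock libraries. Cdk6 was at 95 and 378 against 153, 84 and 139, with mock replicate 2 above all other libraries (-0.64, SE 0.69, limma adjusted p 0.695, and 0.35 without mock replicate 2).

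Cdkn1a was at 1994 and 4401 with mock treatment and at 8317, 9111 and 4435 under ADT. The groups were apart by a narrow gap, since ADT replicate 3 lay just above mock replicate 2 (log2 change 1.23, SE 0.49, adjusted p 0.322 in limma). Cdkn1b was at 2867 and 2211 against 3483, 2398 and 2555 (0.14, SE 0.23, adjusted p 0.803 in limma), with overlapping groups, and at -0.05 without mock replicate 2. Cdkn2c was at 567 and 333 with mock treatment and at 1009, 1106 and 1108 under ADT, with a small spread for its mean, 1074 ± 56.6 (SD, n = 3). Its log2 change of 1.30 (SE 0.27, adjusted p 0.159 in limma) ran from 0.92 to 1.69 over the other settings.

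The senescence-linked INK4 genes overlapped between the groups. Cdkn2a was at 336 and 1423 with mock treatment and at 511, 909 and 358 under ADT (log2 change -0.33, SE 0.75, limma adjusted p 0.868), and at 0.71 without mock replicate 2. Cdkn2b was at 412 and 809 against 232, 602 and 309 (-0.72, SE 0.53, adjusted p 0.554 in limma). Neither differed beyond the spread between libraries. Mock replicate 2 was the highest of the 5 libraries for Cdk6, Cdkn2a and Cdkn2b. That library also had a sum of 24203 over 6 basal and squamous epithelial markers, against 1002 in mock replicate 1, and a fibroblast sum of 89177 against 474209. ADT replicates 2 and 3 had like sums, 31572 and 23680 for the basal and 72171 and 53203 for the fibroblast markers. In them Cdk6 was at 84 and 139, Cdkn2a at 909 and 358 and Cdkn2b at 602 and 309. ADT replicate 1 had a basal sum of 6786 and a fibroblast sum of 358340, with Cdk6 at 153, Cdkn2a at 511 and Cdkn2b at 232. Over 7 seminal vesicle markers mock replicate 2 summed to 283006, against 4772 in mock replicate 1 and 3 to 12514 under ADT. How far such differences in tissue bear on the members was not tested.

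Among the surrounding genes, 0 members of the 7 lists were called under ADT. Counts without overlap are to be read against all genes, of which 16.4% were higher and 16.8% lower without overlap. Of 13 E2F target genes of S phase 9 were higher without overlap (median 0.62, against -0.02 for all genes), with Mcm5 at 0.90 (SE 0.15, adjusted p 0.128 in limma). Of 10 E2F factors and partners 6 were higher without overlap (median 0.71), and E2f8 averaged 1083 against 292 (1.85, adjusted p 0.166 in limma). Of the 9 later cyclins, CDKs and CDC25 phosphatases tested, 2 were higher without overlap and 7 overlapped (median 0.37), with Cdk1 at 0.09 and Ccna2 at 0.29. Mki67 overlapped as well (0.54, adjusted p 0.648 in limma). Skp2 had the smallest p of the turnover list, at a mean of 854 against 334 (1.35, SE 0.15, adjusted p 0.0989 in limma). Bmi1, lower in the genotype comparisons, was at 3550 against 1639 (1.10, adjusted p 0.15), and Cdkn1c, a further inhibitor of the Cdkn1 family, at 1035 against 468 (1.13, adjusted p 0.188 in limma). Of the 12 senescence-associated secreted genes 1 was higher and 3 lower without overlap (median -0.70). Of macrophage markers 3 of 6 (median -1.23) and of endothelial markers 3 of 6 (median -0.96) were lower without overlap. The macrophage sum was 35056 and 9939 in mock replicates 1 and 2, against 6177 to 9767 under ADT. The endothelial sum was 28111 and 11813 against 8949 to 9078, so mock replicate 2 lay much nearer to the ADT libraries than mock replicate 1. Luminal epithelial markers summed to 42841 to 54163 under ADT and 83209 to 93864 with mock treatment, with 5 of 6 lower without overlap and none at 0. The part of these cell types in the values of members and lists was not tested.

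Genes most like a member across the 9 genotype libraries were those with the smallest root mean square difference in centred log2 values, a description over libraries that share 3 groups. For Cdkn2a, whose own SD over the libraries was 3.30, they were Cdh17 (0.82), Foxa2 (0.92) and Cldn14 (0.92). For Cdkn2b (SD 1.5) they were Oas1a (0.27), Ect2 (0.28) and Cenpi (0.29). For Cdkn1a (SD 1.48) they were Psrc1 (0.34), Tinag (0.45) and Ramp3 (0.47), and for Cdk6 (SD 0.84) Abhd2 (0.21) and Mettl20 (0.23). The genes nearest to Ccnd2 (SD 0.65) were Ramp2 (0.17), Epas1 (0.19) and Entpd1 (0.20). Ccnd1 and Cdkn1b varied so little, with SDs of 0.23 and 0.12, that many genes lie close to them, and none is named.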

How the data were processed

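The members and gene lists were chosen with earlier results of these data known. Libraries were sequenced from both ends, 90 nt each, from RNA with an integrity number over 7.3, per the labels' protocols. Per the submitters' processing notes, the build was GRCm38.p3 and the tools included DESeq2 1.14.1, HTSeq 0.6.0 and TopHat2 2.1.0, whose roles are not given in the sources used here. The deposited values are scores, namely whole numbers that, judged from the values, the authors obtained from counts by dividing each library by its size factor and rounding (median ratios 0.981 to 1.01), so depth and the precision it gives are unknown.

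The genotype files list 15195 features. Those without an Entrez number (631), Entrez numbers given to several features (118) and repeats of another gene's values (389, of which the lowest number current in RefSeq was kept) were removed. The lowest mean of a gene kept was 15.6 over the 9 libraries, so a gene with a lower wild-type mean is present through its tumour values. A further genotype group, comparisons that rest on it and some single genes are not reported here. Values were tested as log2(value + 1) with limma 3.58.1 in R 4.3.3, with a trend in the prior variance, over genes at 1 or more in at least 3 of 9 libraries (2 of 5 in the inducible model), all 9 fitted together. The 5 inducible libraries, a separate set of files, were fitted alone. The design allowed for counts as well, and the test for scaled values was used. Named were all 10 members, up to 4 genes of smallest p per pathway list and up to 3 genes most like a member. A few further genes of these lists were added after the values were seen. The test was run on simulated data with the same spread setting for all genes and no tissue differences. That run checks the code and not how the test does on these libraries. For 6 of the 10 members (Ccnd1, Ccnd2, Ccnd3, Cdk4, Cdk6 and Cdkn1a) GENCODE M21 places a gene of the opposite strand over part of an exon, and whether counting used strand is not given in the sources used here.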

Additional observations from a re-analysis of the deposited data

How the results depend on the processing

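Over 16 other settings for each genotype comparison (pseudocount, filter, scaling, prior variance, libraries in the fit, each replicate left out), Cdk4, Cdk6, Cdkn1a, Cdkn2a and Cdkn2b kept their direction and their call in both. Leaving out the filter is no check here, since the same 13905 genes were then tested with the same values. Members called lower in the Ctnnb1 group numbered 0 with equal totals and 1 without a trend, and 1 to 2 when a replicate was left out. In the combined group 8 were called higher and 0 lower with equal totals, and 0 to 1 lower when a replicate was left out. With equal totals 78.9% of calls over all genes were higher in the Ctnnb1 and 81.9% in the combined comparison, against 49.4% and 48.9% as reported. Changes of sign came with equal totals for Ccnd1 (0.40) and Cdkn2c (0.26) in the Ctnnb1 group and for Ccnd3 (0.21) and Cdkn1b (0.43) in the combined group. With a replicate left out, values that changed sign ran from -0.32 to 0.11 (Ccnd1 in the Ctnnb1 group) and, in the combined group, from -0.18 to 0.25 (Ccnd1), -0.22 to 0.53 (Ccnd2) and -0.16 to 0.00 (Cdkn1b). Under ADT they ran from -1.61 to 0.42 (Ccnd2), -0.39 to 0.05 (Ccnd3), -1.63 to 0.35 (Cdk6), -0.05 to 0.33 (Cdkn1b) and -1.37 to 0.71 (Cdkn2a), with the spread of a single mock library taken from the ADT libraries. The cause was not tested.

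Under ADT no member was called in any setting, while genes called numbered 2 as reported, 5 with a pseudocount of 10, 60 at a mean of at least 50, 48 with equal totals, 44 with TMM factors, 29 with a robust prior variance, 0 without a trend and 0 when any replicate was left out. With the replicate block it was 0 genes, and Ccnd1 was at 2.14 (adjusted p 0.412 in limma). Deviations of mock and ADT libraries correlated at 0.223 for number 1 and 0.117 for number 2, but at 0.137 for mock replicate 2 with ADT replicate 3. The deviations of 2 mock libraries mirror each other, so these values are not independent and do not show that the numbers pair the samples. Divided by exon length, the Cdk4 share differed from wild type by -0.472 points in the Ctnnb1 and -0.127 in the combined group, and the Cdkn1a share by 16.7 points in the Ctnnb1 group, against -1.97, -0.536 and 23.0 points as reported. The pathway lists were recomputed with equal totals after their first results had been seen. Of the 460 other values for single members, 424 kept direction and side of the threshold. These 424 include the values without a filter in the genotype comparisons, which could not differ.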
